A study of Mus musculus with 49 samples.

Results

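The interferon-gamma signalling genes examined here are 9 of the 39179 genes in the deposited count table of 49 mouse tumours. They were chosen by symbol: the receptor chains Ifngr1 and Ifngr2, the kinases Jak1 and Jak2, the induced genes Irf1 and Wars, and the SOCS family inhibitors Socs1, Socs3 and Cish. Each symbol mapped to 1 row of the table, and all 9 passed the filter on low counts in every fit. The tumours were CT26, a transplantable colorectal carcinoma line of mouse origin, in Balb/c mice. Treatment began on day 7 after injection of the cells and lasted 7 days. Anti-PD-1 plus celecoxib (the combination) was given to 16 tumours, of which 12 carry the response label R and 4 the label NR. Anti-PD-1, an antibody that blocks an inhibitory receptor of T cells, was given alone to 17 tumours (4 R, 13 NR) as 2 doses of 200 µg. Celecoxib, an inhibitor of cyclooxygenase-2, was given alone daily at 30 mg/kg to 7 tumours, and the DMSO-PEG400 vehicle to 9 tumours, all of both groups labelled NR. The labels do not define R and NR. They also place sampling both on day 4 and on day 7 after treatment, which was not settled here. No label states that each tumour came from its own mouse, so p-values here speak of the spread from library to library, part of which may be technical.

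Interferon-gamma, a cytokine of activated T cells and natural killer cells, binds a receptor made of Ifngr1 chains, which carry Jak1, and Ifngr2 chains, which carry Jak2. The kinases pass the signal on to gamma-activated sites (GAS) in genes such as Irf1, whose product in turn binds interferon-stimulated response elements (ISRE). Among the induced genes are inhibitors of the pathway itself: the Socs1 protein blocks the JAK kinases, whereas Socs3 is known mainly as a STAT3-induced brake on IL-6 family receptors and Cish as a STAT5-induced brake on IL-2 family and T cell receptor signalling.

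RNA was read as QuantSeq 3′ libraries, which count the 3′ ends of transcripts, with 4251251 to 13671294 counts per tumour (median 7670623). Levels below are in CPM, counts scaled to a common library size after correction for composition, and differences are log2 fold changes with standard errors (SE). These are bulk tumours, so fewer cells of a type and less RNA per cell cannot be told apart. The carcinoma markers Krt8, Krt18 and Krt20 had counts in 49 of 49 tumours and Epcam in 31, while the intestinal markers Cdx2 and Vil1 had counts in 1 and 6. Muscle, skin or fat transcripts stood out in 12 tumours: 4 of 16 with the combination, 5 of 17 with anti-PD-1, 2 of 7 with celecoxib and 1 of 9 with vehicle.

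The members differed in how widely they varied over the 49 tumours. The highest tumour exceeded the lowest 13.2-fold for Socs1, 10.5-fold for Irf1 and 9.39-fold for Cish, and 6.29-fold for Wars and 6.27-fold for Socs3. The same ratio was 3.30 for Ifngr1, 3.10 for Ifngr2, 2.52 for Jak2 and 2.01 for Jak1. The induced genes and the inhibitors therefore had the wider ranges, and the receptors and kinases the narrower ones. Cish was the least counted member, with 14 to 145 counts per tumour, so counting error weighs more on it than on the others.

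**Figure D1:**
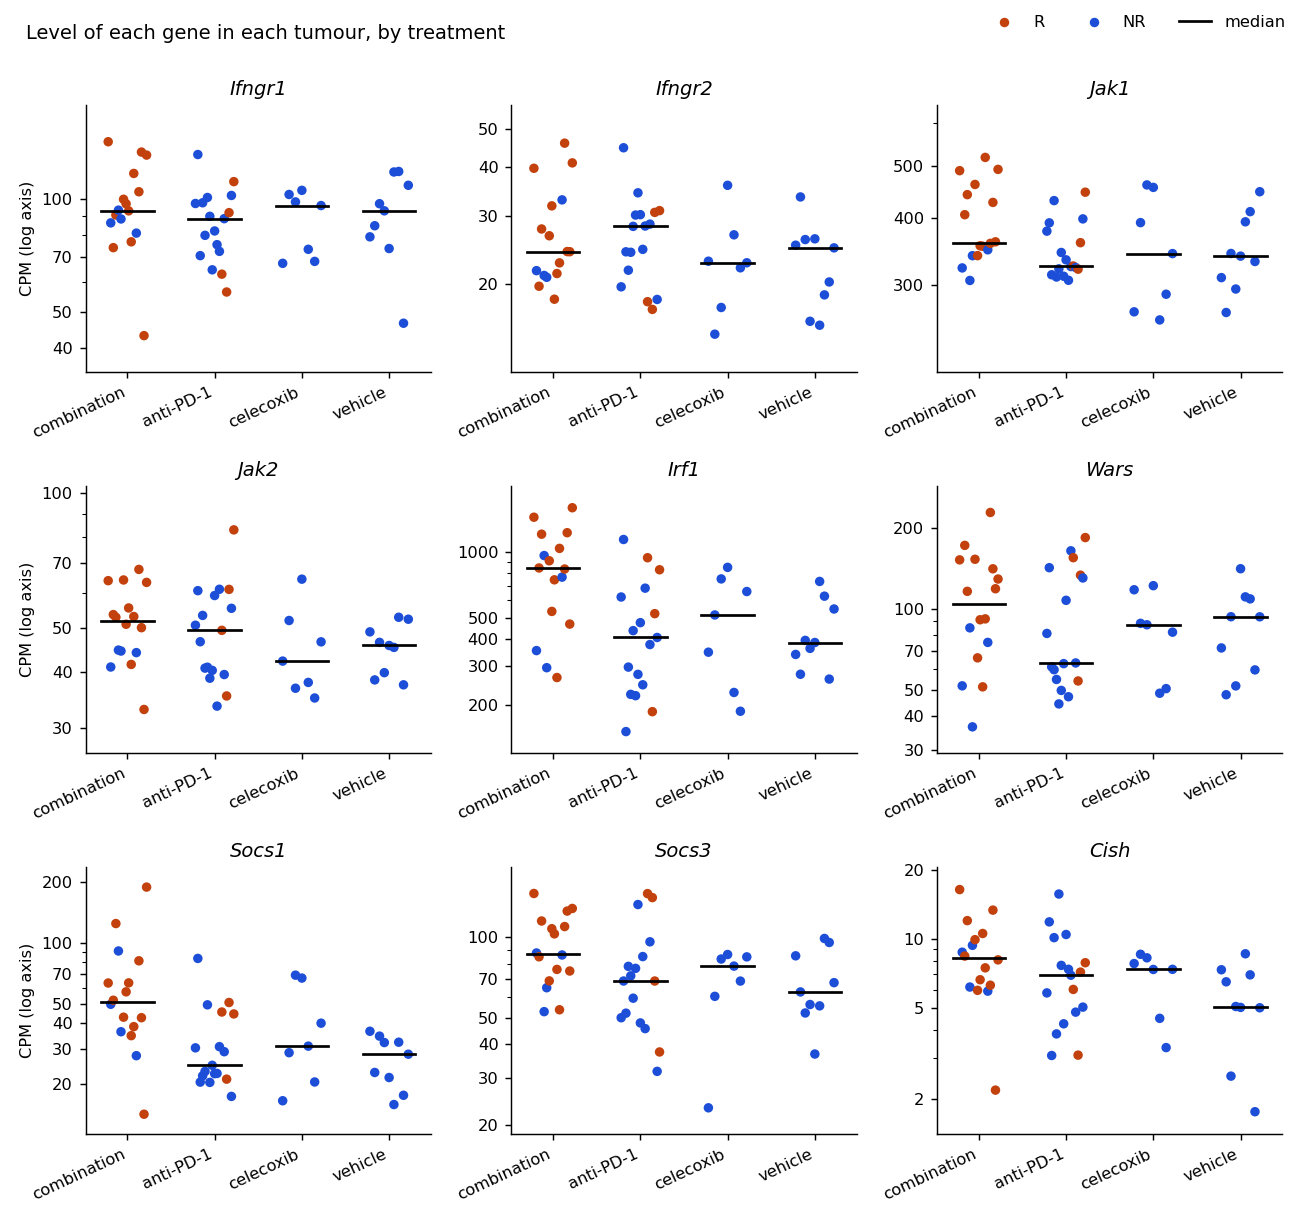
Level of each of the 9 genes in CPM on a log axis, 1 point per tumour, by treatment, with R tumours in orange, NR tumours in blue and the median as a bar. Socs1 and Irf1 have higher medians with the combination (50.8 and 838 CPM) than with anti-PD-1 (24.8 and 406 CPM), with overlapping points, while the receptors and kinases lie close together in the 4 treatments.

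Among the receptor chains, Ifngr1 (ENSMUSG00000020009, chr10:19591949-19610229, plus strand), the ligand-binding chain, had a lowest, median and highest level of 43.1, 93.1 and 142 CPM with the combination, 56.4, 88.5 and 131 CPM with anti-PD-1, 67.3, 96.0 and 105 CPM with celecoxib, and 46.5, 92.9 and 118 CPM with vehicle. Ifngr2 (ENSMUSG00000022965, chr16:91547072-91565623, plus strand), the signalling chain, had 18.3, 24.2 and 46.1 CPM with the combination, 17.2, 28.2 and 44.9 CPM with anti-PD-1, 14.9, 22.7 and 35.9 CPM with celecoxib, and 15.7, 24.8 and 33.5 CPM with vehicle. For both chains the 4 groups overlapped over most of their ranges. The combination differed from anti-PD-1 by 0.16 ± 0.12 (log2, SE) for Ifngr1 and by 0.04 ± 0.13 for Ifngr2, and neither had an unadjusted p under 0.05.

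Jak1 (ENSMUSG00000028530, chr4:101152367-101265282, minus strand), which serves many cytokine receptors, had a lowest, median and highest level of 305, 359 and 518 CPM with the combination, 306, 325 and 446 CPM with anti-PD-1, 258, 343 and 461 CPM with celecoxib, and 266, 339 and 447 CPM with vehicle. Jak2 (ENSMUSG00000024789, chr19:29251828-29313080, plus strand) had 33, 52 and 67.7 CPM with the combination, 33.5, 49.5 and 83 CPM with anti-PD-1, 35.0, 42.2 and 64.4 CPM with celecoxib, and 37.4, 45.8 and 52.9 CPM with vehicle. In 14 of 16 combination tumours Jak1 lay above the anti-PD-1 median, and 4 exceeded the highest anti-PD-1 tumour. Its difference between the combination and anti-PD-1 was 0.18 ± 0.09 (adjusted p = 0.276, edgeR quasi-likelihood test with Benjamini-Hochberg adjustment over all genes), and that of Jak2 was 0.04 ± 0.10.

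Irf1 (ENSMUSG00000018899, chr11:53770014-53778374, plus strand), the transcription factor induced first in the pathway, had a GAS match in its promoter. Its RefSeq window on GRCm38.p6, 250 bases before to 50 bases after the gene's start, is shown because it holds a match to the GAS letters; the window is chr11:53769764-53770063, plus strand, and the capitals mark the GAS match (letters TTCNNNGAA, which read the same on both strands), 90 to 82 bases before the start.
Irf1: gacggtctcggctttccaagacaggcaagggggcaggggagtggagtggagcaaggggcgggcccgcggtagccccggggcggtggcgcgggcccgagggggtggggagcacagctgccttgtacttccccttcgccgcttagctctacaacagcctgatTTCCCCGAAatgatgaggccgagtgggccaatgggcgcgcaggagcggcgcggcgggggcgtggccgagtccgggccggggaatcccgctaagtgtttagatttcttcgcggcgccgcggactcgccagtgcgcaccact
The match was chr11:53769924-53769932. Of 32851 windows of the same length, 8.30% held these letters.

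The level of Irf1 was 267, 838 and 1584 CPM (lowest, median and highest) with the combination, 152, 406 and 1136 CPM with anti-PD-1, 188, 515 and 848 CPM with celecoxib, and 263, 386 and 732 CPM with vehicle. Of the 16 combination tumours, 13 lay above the anti-PD-1 median and 4 above the highest anti-PD-1 tumour, with the groups overlapping. The difference was 0.83 ± 0.26 between the combination and anti-PD-1 (edgeR adjusted p = 0.0966) and 0.95 ± 0.32 between the combination and vehicle (adjusted p = 0.183). Over 41 alternative settings the first difference ranged from 0.35 to 0.95, with adjusted p between 0.0405 and 0.356.

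Wars (ENSMUSG00000021266, chr12:108860030-108894174, minus strand) encodes tryptophanyl-tRNA synthetase, an enzyme of protein synthesis that is also induced by interferon-gamma. Its level was 36.5, 104 and 229 CPM with the combination, 44.4, 63.1 and 185 CPM with anti-PD-1, 48.6, 87.5 and 122 CPM with celecoxib, and 48.0, 93.7 and 141 CPM with vehicle. The ranges overlapped in all 4 treatments, and the combination differed from anti-PD-1 by 0.23 ± 0.22 and from vehicle by 0.35 ± 0.27. Wdr25 overlaps the 5′ end of Wars on the opposite strand, not the 3′ end that these libraries count. Wdr25 had 1458 counts in all tumours, against 37240 for Wars. Whether the authors counted by strand is not stated in the labels.

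Among the inhibitors, Socs1 (ENSMUSG00000038037, chr16:10782240-10785536, minus strand) showed the largest fitted difference of the 9 members between the combination and anti-PD-1. Its window, chr16:10785487-10785786 on the minus strand of GRCm38.p6 (RefSeq), is shown beside that of Irf1 because it holds ISRE letters, the element that IRF factors bind. The capitals mark an overlapping pair of ISRE matches (GAAA, any 2 bases and GAAA, sought on both strands), together 83 to 68 bases before the start.
Socs1: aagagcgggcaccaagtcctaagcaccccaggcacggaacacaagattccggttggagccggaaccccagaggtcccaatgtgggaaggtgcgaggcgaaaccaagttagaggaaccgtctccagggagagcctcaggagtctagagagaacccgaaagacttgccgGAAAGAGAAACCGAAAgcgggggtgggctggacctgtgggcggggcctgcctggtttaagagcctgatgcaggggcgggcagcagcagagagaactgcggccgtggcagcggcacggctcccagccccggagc
The matches were GAAAGAGAAA at chr16:10785610-10785619 and GAAACCGAAA at chr16:10785604-10785613. Of all windows, 3.44% held ISRE letters. The Irf1 window held no ISRE letters, and the Socs1 window held no GAS letters.

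Socs1 had a lowest, median and highest level of 14.2, 50.8 and 188 CPM with the combination, 17.4, 24.8 and 83.5 CPM with anti-PD-1, 16.6, 30.8 and 69.0 CPM with celecoxib, and 15.9, 28.1 and 36.5 CPM with vehicle. In 15 of 16 combination tumours it lay above the anti-PD-1 median, in 12 above the highest vehicle tumour, and in combination tumour 15 below every tumour of the other groups. Tumours 16 and 4 of the combination had the highest levels of all 49, at 188 and 124 CPM. The difference was 0.94 ± 0.25 between the combination and anti-PD-1 (edgeR adjusted p = 0.0595) and 1.22 ± 0.31 between the combination and vehicle (adjusted p = 0.0962). A smaller p was found for 0.663% of the 13726 tested genes in the first comparison and for 0.248% in the second, while both adjusted values stayed above the limit of 0.05.

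Socs3 (ENSMUSG00000053113, chr11:117966079-117970047, minus strand) had 53, 86.8 and 146 CPM with the combination, 31.8, 68.9 and 146 CPM with anti-PD-1, 23.2, 78.3 and 86.4 CPM with celecoxib, and 36.8, 62.7 and 99.2 CPM with vehicle. Cish (ENSMUSG00000032578, chr9:107296026-107302784, plus strand) had 2.18, 8.25 and 16.4 CPM with the combination, 3.09, 6.93 and 15.7 CPM with anti-PD-1, 3.34, 7.36 and 8.56 CPM with celecoxib, and 1.75, 5.06 and 8.61 CPM with vehicle. Both overlapped widely between treatments. The combination differed from anti-PD-1 by 0.29 ± 0.18 for Socs3 and 0.27 ± 0.21 for Cish, and from vehicle by 0.45 ± 0.22 (adjusted p = 0.324, edgeR) and 0.66 ± 0.26 (adjusted p = 0.222). Their promoter windows held GAS letters too, TTCTTAGAA in Socs3 (chr11:117969512-117969520) and TTCCTGGAA and TTCTTGGAA in Cish (chr9:107296659-107296667 and chr9:107296670-107296678). The Socs3 match lay 154 to 146 bases before the RefSeq start, and both Cish matches lay after it. By the gene coordinates given above, these matches fall inside the genes, unlike the match of Irf1. The windows of Ifngr1, Ifngr2, Jak1 and Jak2 held neither kind of letters, and a second window of Irf1 held none; 8 of the 9 members had a window.

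Celecoxib added to anti-PD-1 is the question of the design, and in that comparison all 9 members had a positive difference, from 0.04 for Ifngr2 to 0.94 for Socs1. None of the 9 passed the adjusted limit of 0.05 in edgeR, where 0.503% of all 13726 genes did. At an unadjusted p under 0.05 the count was 3 of 9 (Socs1, Irf1 and Jak1), against 17.2% of all genes. DESeq2 called 2 of 9, Socs1 (adjusted p = 0.0140) and Irf1 (adjusted p = 0.0405), in a fit that called 2.16% of all genes, and limma-voom called 0. Over the 41 alternative settings the adjusted p of Socs1 lay between 0.0140 and 0.247, and it was under 0.05 in 11 of them, among them that with the muscle list as a covariate (adjusted p = 0.0367, 1.06% of all genes called). Leaving out combination tumour 15 gave 1.02 for Socs1 (adjusted p = 0.0143) and 0.88 for Irf1 (adjusted p = 0.0490) with 3.28% of all genes called, and leaving out anti-PD-1 tumour 2, the highest of its group for both genes, gave 1.07 (adjusted p = 0.0186) and 0.95 (adjusted p = 0.0439) with 1.55% called. The share of all genes called was thus above 0.503% in each of these settings too.

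Markers of several cell types moved with these values. All 14 T cell markers had a positive difference between the combination and anti-PD-1, 12 of them at an unadjusted p under 0.05 (17.2% of all genes) and none past the adjusted limit, with a median of 1.07. The mean log2 CPM of the list was 0.17, 3.25 and 5.18 (lowest, median and highest) with the combination, -0.44, 2.03 and 4.41 with anti-PD-1, 1.55, 2.11 and 4.00 with celecoxib, and 1.21, 2.68 and 3.54 with vehicle. Every marker was counted in at least 47 of 49 tumours. With the list as a covariate the difference between the combination and anti-PD-1 was 0.51 ± 0.23 for Socs1, 0.35 ± 0.19 for Irf1, 0.39 ± 0.21 for Socs3 and 0.05 ± 0.08 for Jak1. Those of Ifngr1, Jak2, Ifngr2, Wars and Cish were below 0, at -0.12, -0.17, -0.16, -0.05 and -0.02. In that fit 0 of the 9 members passed the adjusted limit, against 0.248% of all genes. Combination tumour 15 had a list mean of 0.17 and muscle markers at 6.35, and it was the lowest of the 49 tumours for Socs1, Jak2 and Ifngr1. Combination tumour 16, the highest for Socs1 and Irf1, had a T cell list mean of 4.69. Cytotoxic lymphocyte markers were positive in 9 of 9 (median 1.09, 7 at an unadjusted p under 0.05), skeletal muscle markers in 22 of 23 (median 1.48, 7 unadjusted) and macrophage markers in 9 of 11 (median 0.46, 1 unadjusted). Endothelial markers were negative in 8 of 8 (median -0.41, 3 unadjusted, 1 of them past the adjusted limit) and fibroblast markers in 8 of 8 (median -0.32, 3 unadjusted). The part of these cell types in the differences was not tested beyond the T cell and muscle covariates.

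**Figure D2:**
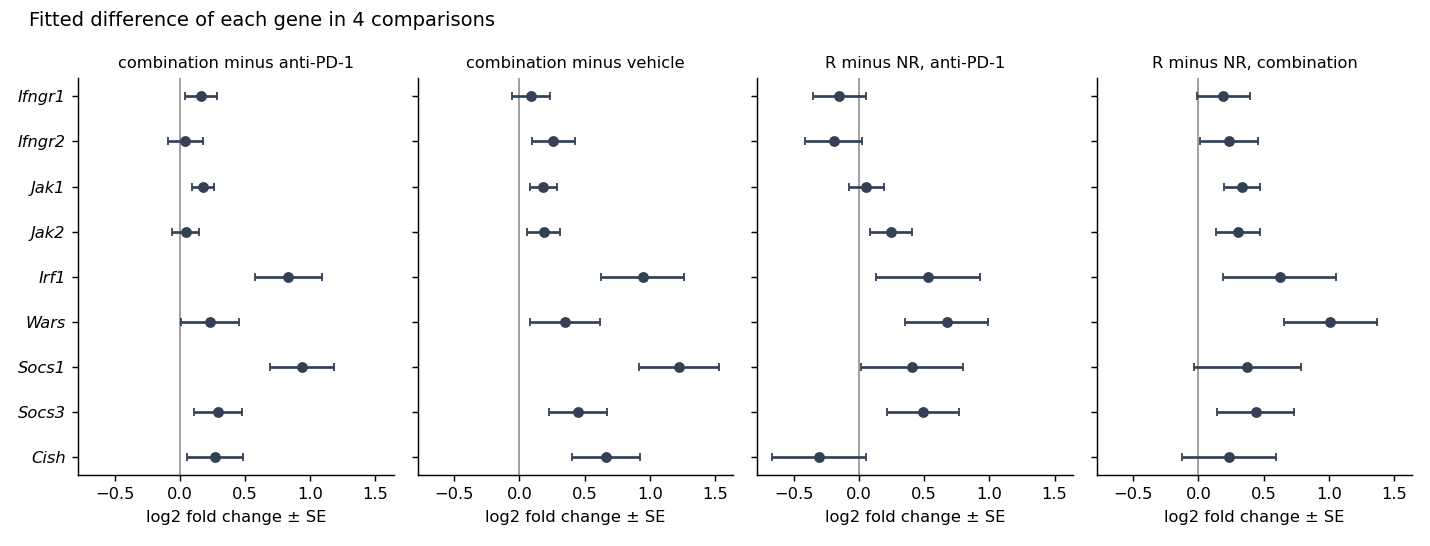
Fitted log2 fold change of each gene with its SE in 4 comparisons; points right of the line are higher in the first-named group. Socs1 and Irf1 lie furthest right for the combination against anti-PD-1 (0.94 and 0.83) and against vehicle (1.22 and 0.95), and Wars lies furthest right in both comparisons of R with NR (0.67 under anti-PD-1 and 1.01 under the combination).

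Against vehicle, which serves as control in 3 of the comparisons, the combination gave positive differences for all 9 members. None passed the adjusted limit in edgeR, against 0.0729% of all genes, and 4 of 9 (Socs1, Irf1, Cish and Socs3) had an unadjusted p under 0.05, against 15.4%. DESeq2 called Socs1 alone (adjusted p = 0.0134, with 0.488% of all genes), as did edgeR with the muscle covariate (adjusted p = 0.0379, with 0.430%), and limma-voom called 0. Without the 12 tumours that held other tissue, Socs1 differed by 1.30 ± 0.31 (adjusted p = 0.0169), where 5.80% of all genes were called, and over 33 alternatives its adjusted p lay between 0.0134 and 0.203.

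Each agent alone gave smaller differences from the same vehicle tumours. Anti-PD-1 alone differed from vehicle by 0.28 ± 0.30 for Socs1, 0.11 ± 0.31 for Irf1, 0.39 ± 0.26 for Cish and 0.16 ± 0.22 for Socs3. Celecoxib alone differed from vehicle by 0.54 ± 0.36 for Socs1, 0.21 ± 0.37 for Irf1, 0.32 ± 0.31 for Cish and 0.03 ± 0.26 for Socs3. In neither was a member called by edgeR, DESeq2 or limma-voom, or under an unadjusted p of 0.05 in edgeR: 0 of 9 with anti-PD-1 (0.0874% of all genes adjusted, 3.48% unadjusted) and 0 of 9 with celecoxib (0% adjusted, 2.29% unadjusted). With both agents against celecoxib alone, Irf1 differed by 0.73 ± 0.35 and Socs1 by 0.68 ± 0.33 (both adjusted p = 0.918, edgeR). That made 0 of 9 members under the adjusted limit (0.0364% of all genes) and 2 of 9 unadjusted (4.92%), with 0 in DESeq2 and limma-voom.

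The interaction of the agents asks whether the combination differs from the sum of the single treatments. It was 0.62 ± 0.45 for Irf1, 0.40 ± 0.43 for Socs1, 0.27 ± 0.32 for Socs3 and -0.05 ± 0.38 for Cish. None of the 9 was called by edgeR (0% of all genes), DESeq2 or limma-voom, and 0 of 9 had an unadjusted p under 0.05 (3.01%).

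By response label, Wars was the member that differed most. Under the combination Wars had a lowest, median and highest level of 51.4, 124 and 229 CPM in the 12 R tumours, and 36.5, 51.8, 75.2 and 85.2 CPM in the 4 NR tumours. Of the R tumours, 10 lay above the highest NR tumour, and the groups overlapped at the low end. Under anti-PD-1 it had 54, 134, 156 and 185 CPM in the 4 R tumours, and 44.4, 62.7 and 165 CPM (lowest, median and highest) in the 13 NR tumours. Of these R tumours, 3 lay above the NR median and 1 lay below it. The difference of R from NR was 1.01 ± 0.36 under the combination (adjusted p = 0.420, edgeR) and 0.67 ± 0.32 under anti-PD-1 (adjusted p = 0.757). Averaged over both treatments it was 0.84 ± 0.24 (adjusted p = 0.115), with a smaller p in 0.8% of the 14247 genes of the 6-group fit.

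**Figure D3:**
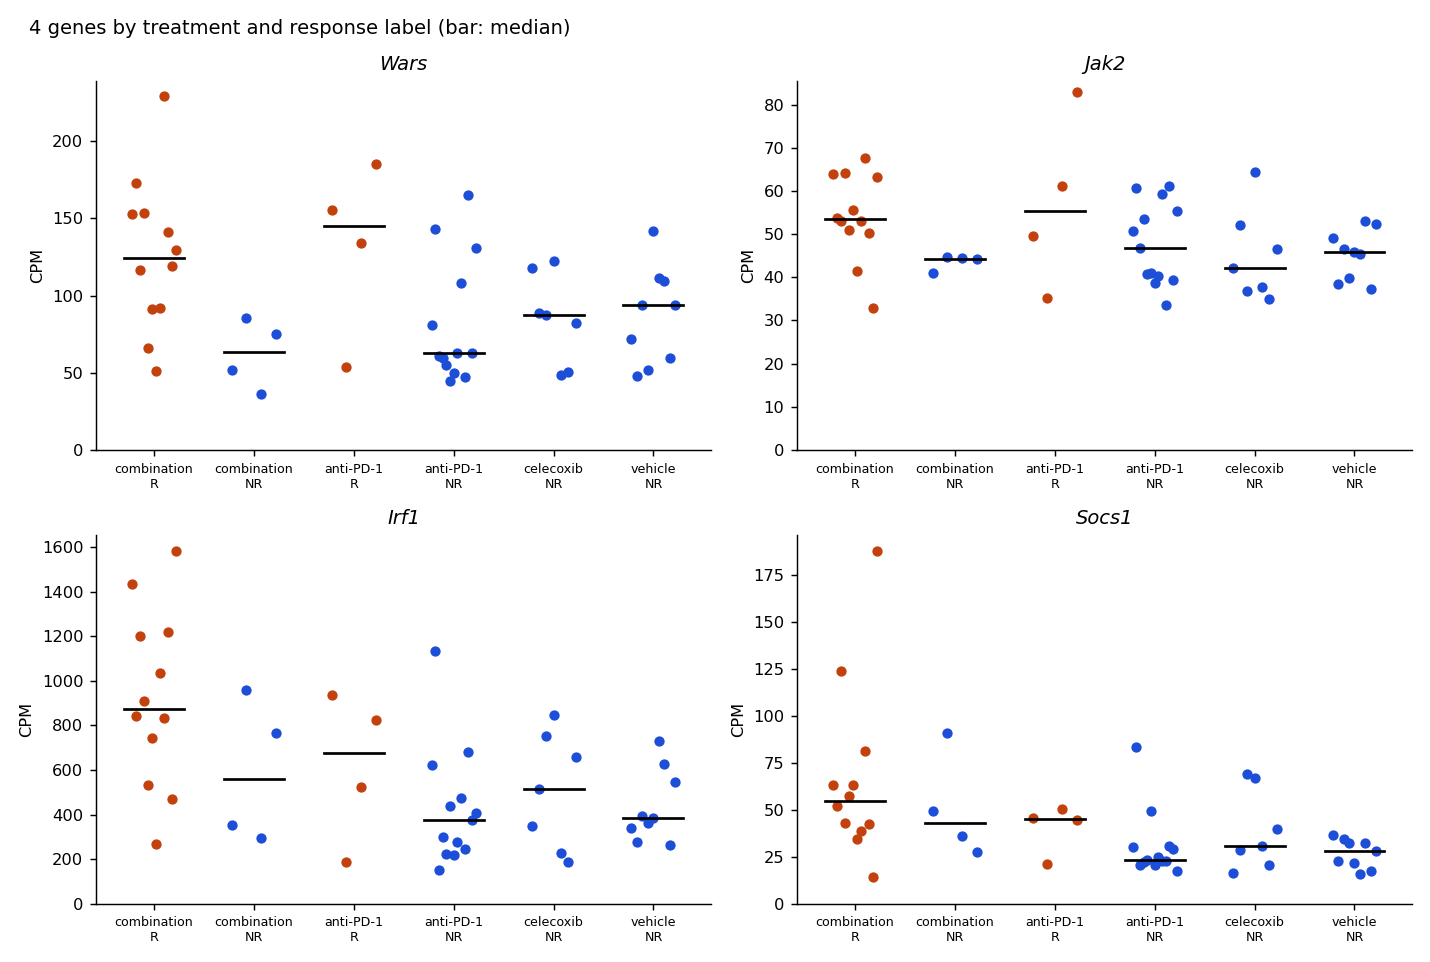
CPM of Wars, Jak2, Irf1 and Socs1 by treatment and response label, 1 point per tumour, median as a bar, axes from 0. Wars medians are 124 CPM in combination R tumours against 63.5 CPM in combination NR tumours, and 145 CPM in anti-PD-1 R tumours against 62.7 CPM in anti-PD-1 NR tumours.

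Jak1 and Jak2 had higher medians in R than in NR tumours under both antibody treatments. Jak1 had a lowest, median and highest level of 340, 416 and 518 CPM in combination R tumours, and 305, 322, 340 and 348 CPM in combination NR tumours, so 11 of 12 R tumours exceeded the highest NR tumour. Jak2 had 33, 53.4 and 67.7 CPM in combination R tumours, and 41, 44.1, 44.5 and 44.7 CPM in combination NR tumours, with 10 of 12 R tumours above the NR range and 1 below it. Under anti-PD-1 Jak1 had 321, 325, 359 and 446 CPM in the R tumours, and 306, 324 and 431 CPM in the NR tumours. Jak2 had 35.3, 49.5, 61.1 and 82.9 CPM in these R tumours, and 33.5, 46.7 and 61.1 CPM in these NR tumours. The difference of R from NR in Jak1 was 0.33 ± 0.14 under the combination and 0.06 ± 0.13 under anti-PD-1, and the difference between the 2 was 0.28 ± 0.19, which did not pass the limit (adjusted p = 0.999, edgeR). In Jak2 the difference of R from NR was 0.30 ± 0.17 under the combination and 0.25 ± 0.16 under anti-PD-1. With the T cell list as a covariate, that under the combination was 0.22 ± 0.13 for Jak1 and 0.08 ± 0.12 for Jak2.

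For the inhibitors, Socs1 had 14.2, 54.5 and 188 CPM in combination R tumours, and 27.7, 36.3, 49.6 and 90.9 CPM in combination NR tumours. Under anti-PD-1 Socs1 had 21.2, 44.4, 45.4 and 50.6 CPM in the R tumours, and 17.4, 23.1 and 83.5 CPM in the NR tumours. The groups overlapped in both treatments. The difference averaged over both treatments was 0.39 ± 0.28 for Socs1, 0.58 ± 0.29 for Irf1, 0.46 ± 0.20 for Socs3 and -0.04 ± 0.25 for Cish. Socs3 had 37.5, 68.9, 141 and 146 CPM in the anti-PD-1 R tumours, so these 4 tumours spanned nearly the whole range of the 49.

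Of the 9 members, 0 passed the adjusted limit for R against NR averaged over both treatments in edgeR (0.0491% of all genes), and 4 (Wars, Jak2, Socs3 and Jak1) had an unadjusted p under 0.05 (14%). DESeq2 called Wars (adjusted p = 0.0356) among 1.20% of all genes, as did edgeR with the T cell list as a covariate (0.78 ± 0.19, adjusted p = 0.0490) among 0.274%. Over 41 alternatives the adjusted p of Wars lay between 0.0356 and 0.271. Within anti-PD-1 the counts were 0 adjusted (0%) and 1 unadjusted (6.48%), Wars. Within the combination they were 0 adjusted (0%) and 2 unadjusted (9.11%), Wars and Jak1. For the difference between the treatments in R against NR they were 0 adjusted (0%) and 0 unadjusted (2.31%). DESeq2 and limma-voom called 0 in these 3 comparisons.

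Because R tumours made up 12 of 16 with the combination and 4 of 17 with anti-PD-1, the treatments were also compared within each label. Among NR tumours the combination differed from anti-PD-1 by 0.76 ± 0.38 for Socs1, 0.48 ± 0.40 for Irf1 and -0.41 ± 0.34 for Wars. Among R tumours it differed by 0.72 ± 0.42 for Socs1, 0.57 ± 0.43 for Irf1, 0.56 ± 0.37 for Cish and -0.07 ± 0.33 for Wars. Socs1 was thus higher with the combination in both labels, while the Wars differences lay below 0, the second by less than its SE. Over the alternatives the Socs1 difference ranged from 0.32 to 0.97 among NR tumours and from 0.02 to 0.85 among R tumours, the low value of 0.02 being that with the T cell list as a covariate. That of Irf1 ranged from 0.15 to 0.70 among NR tumours and from -0.22, again with that covariate, to 0.84 among R tumours, and that of Wars among R tumours from -0.64 to 0.14. No member was called by edgeR, DESeq2 or limma-voom among NR (0.0281% of all genes adjusted) or R (0%), and 0 of 9 had an unadjusted p under 0.05 in either (5.73% and 7.38%).

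The inhibitors were set against the signal mediators as the mean log2 CPM of Socs1, Socs3 and Cish minus that of Ifngr1, Ifngr2, Jak1 and Jak2. Its zero has no meaning of its own, since levels of different genes enter it, and no test was made because the members were chosen with results known. It was -1.31 ± 0.37 (mean and SD) with the combination, -1.70 ± 0.39 with anti-PD-1, -1.58 ± 0.36 with celecoxib and -1.85 ± 0.30 with vehicle. The combination therefore stood 0.39 above anti-PD-1, about 1 SD of the anti-PD-1 tumours, and 0.54 above vehicle, over 1 SD of the vehicle tumours. With Irf1 and Wars counted among the mediators these distances were 0.23 and 0.41. The ranges overlapped, from -2.11 to -0.65 with the combination, -2.48 to -0.92 with anti-PD-1 and -2.22 to -1.37 with vehicle. The inhibitor mean was 5.08 ± 0.51 with the combination, 4.59 ± 0.40 with anti-PD-1, 4.62 ± 0.50 with celecoxib and 4.37 ± 0.33 with vehicle, while the mediator mean was 6.39 ± 0.27 with the combination, 6.29 ± 0.23 with anti-PD-1, 6.21 ± 0.24 with celecoxib and 6.22 ± 0.18 with vehicle. By response label the measure was -1.31 ± 0.40 in combination R tumours and -1.33 ± 0.28 in combination NR tumours, and -1.52 ± 0.51 in anti-PD-1 R tumours and -1.76 ± 0.35 in anti-PD-1 NR tumours. R minus NR was thus 0.03 under the combination, with -0.17 when Irf1 and Wars were counted among the mediators and -0.39 with z-scored genes, and 0.23 under anti-PD-1, with 0.03 when these genes were so counted and 0.09 without tumours with other tissue.

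For Socs1 relative to Irf1, the inhibitor against an induced activator, the combination mean lay closer to the anti-PD-1 and vehicle means. Socs1 minus Irf1 in log2 CPM was -3.81 ± 0.78 with the combination, -3.74 ± 0.54 with anti-PD-1, -3.67 ± 0.55 with celecoxib and -3.98 ± 0.68 with vehicle. These means lie within 1 SD of each other.

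**Figure D4:**
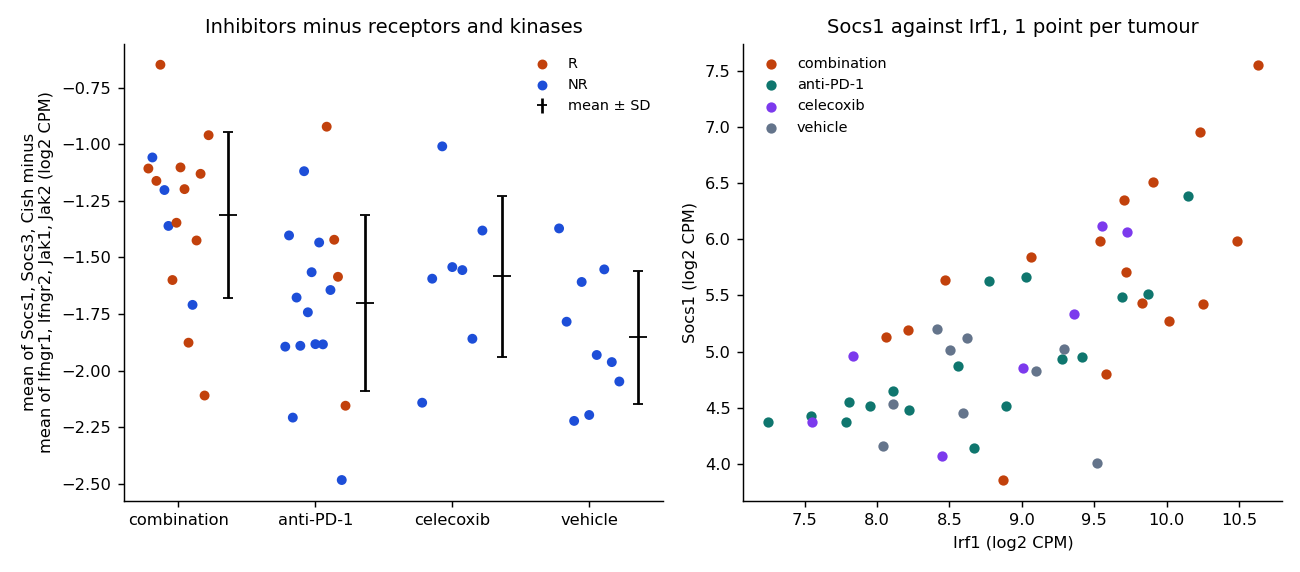
Left, the inhibitor mean minus the receptor and kinase mean in log2 CPM for each tumour, with the mean and SD beside each treatment; right, Socs1 against Irf1 in log2 CPM, 1 point per tumour. The combination has a mean of -1.31 against -1.70 with anti-PD-1 and -1.85 with vehicle, and Socs1 is higher where Irf1 is higher.

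The members were next compared with each other and with the cytokine gene Ifng across the 49 tumours, after the mean of each of the 6 groups of treatment and label was taken off. Of 45 pairs, 27 had an adjusted permutation p under 0.05, and over the 37 tumours without other tissue 21 did. Ifng itself ranged from 0.124 to 39.4 CPM. Jak2 followed it most closely (Pearson r = 0.86, Spearman rho = 0.83, each with p = 1e-05, the smallest that 100000 resamples can give, and adjusted p = 5e-05 and 5.62e-05). Wars (r = 0.80, rho = 0.80) and Irf1 (r = 0.79, rho = 0.75) had the same p-values. Without the 2 tumours farthest from the median of the member, r was 0.83, 0.76 and 0.75 for these 3 genes, and over the 37 tumours it was 0.86, 0.84 and 0.84.

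The inhibitors divided. Socs1 was correlated with Ifng (r = 0.51, p = 0.00057, adjusted p = 0.00142; rho = 0.42, p = 0.00483, adjusted p = 0.0109) and with Irf1 (r = 0.60, p = 2e-05, adjusted p = 7.5e-05; rho = 0.57, p = 7e-05, adjusted p = 0.000242), and without the 2 farthest tumours r was 0.45 and 0.54. Socs1 also followed Ifngr1 (r = 0.57, permutation adjusted p = 0.00021, rho = 0.45, adjusted p = 0.00633). Cish was most alike to Ifngr1 among the members (r = 0.67, p = 3e-05, adjusted p = 0.000104; rho = 0.51, p = 0.00045, adjusted p = 0.00135), with r = 0.50 without the 2 farthest tumours. It also followed Irf1 (r = 0.49, adjusted p = 0.00142, rho = 0.43, adjusted p = 0.00827). With Ifng and Socs1 its r was 0.41 (adjusted p = 0.0106 and 0.0108), but rho did not pass the limit (adjusted p = 0.092 and 0.116). Over the 37 tumours its r with Irf1 and Ifng was 0.33 and 0.30, neither past the limit. Socs3 was correlated with none of the other members at the adjusted limit, and its r with Ifng was -0.31 (p = 0.0686, adjusted p = 0.0996; rho = -0.29, p = 0.0631, adjusted p = 0.105), or -0.25 without the 2 farthest tumours. Ifngr2 and Jak1 had r = 0.01 (p = 0.957, adjusted p = 0.957; rho = -0.02, p = 0.906, adjusted p = 0.960).

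**Figure D5:**
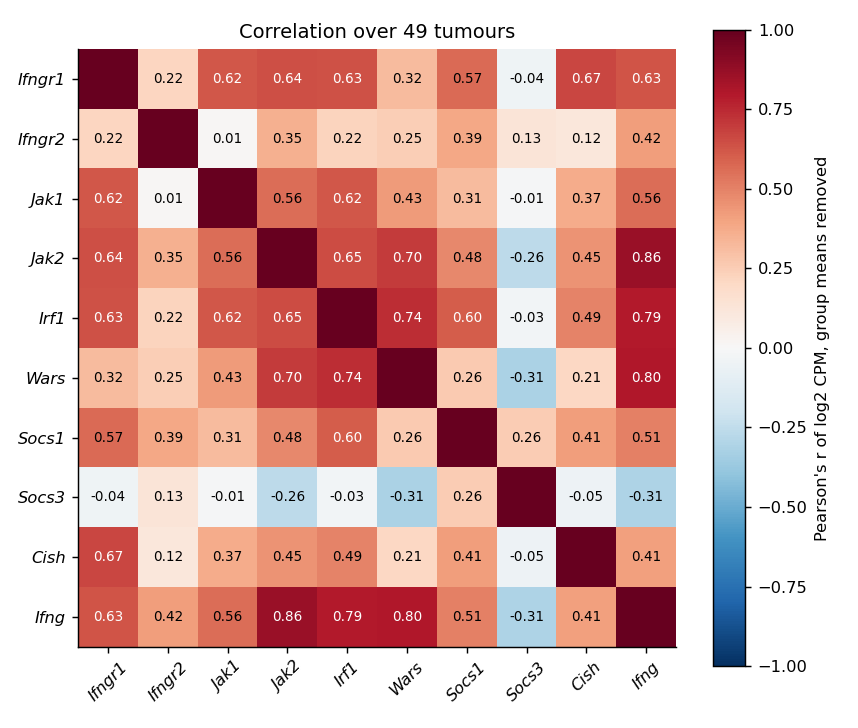
Pearson's r of log2 CPM between the 9 genes and Ifng over 49 tumours, with group means taken off. Jak2, Wars and Irf1 have r of 0.86, 0.80 and 0.79 with Ifng, and the row of Socs3 lies between -0.31 and 0.26.

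Cell type lists gave a like picture, in a family of 72 pairs of members and lists chosen after the data were seen. The T cell list had r = 0.80 with Jak2 (rho = 0.73), 0.76 with Irf1 (rho = 0.77), 0.76 with Ifngr1 (rho = 0.67) and 0.65 with Wars (rho = 0.69), each with permutation p = 1e-05 and adjusted p of 8e-05 for r and 0.000103 for rho. Without the 2 farthest tumours these r were 0.73, 0.73, 0.68 and 0.59. For Socs1 it was 0.56 (p = 0.00028, adjusted p = 0.0011; rho = 0.43, p = 0.00441, adjusted p = 0.0132), and for Socs3 -0.18 (p = 0.281, adjusted p = 0.412; rho = -0.17, p = 0.296, adjusted p = 0.418), or 0.43 and -0.09 without the 2 farthest tumours. Of the other immune lists, only that of cytotoxic lymphocytes gave r of similar size for all these genes. The macrophage and neutrophil lists gave lower r for Jak2 (0.685 and 0.42), Irf1 (0.56 and 0.51) and Wars (0.43 and 0.34). For the neutrophil list, r did not pass the limit with Wars or Socs1 (permutation adjusted p = 0.0673 and 0.147). The cytotoxic lymphocyte list had r = 0.80 with Jak2 (rho = 0.72, permutation p = 1e-05 for each, adjusted p = 8e-05 and 0.000103) and 0.61 with Socs1 (p = 3e-05, adjusted p = 0.000196; rho = 0.50, p = 0.00056, adjusted p = 0.00252), or 0.73 and 0.48 without the 2 farthest tumours. The macrophage list had r = 0.77 with Ifngr1 (p = 1e-05, adjusted p = 8e-05; rho = 0.61, p = 2e-05, adjusted p = 0.000144), or 0.63 without them. Wars was inversely related to the fibroblast list (r = -0.57, p = 4e-05, adjusted p = 0.00024; rho = -0.52, p = 0.00021, adjusted p = 0.00108), with r = -0.55 without the 2 farthest tumours.

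Likeness over the 49 tumours was also sought among 11298 genes with a mean of at least 2 CPM, again with group means taken off. The 3 most like Irf1 were Samhd1 (r = 0.95), which encodes a dNTP hydrolase, Apol6 (r = 0.93), and Tap1 (r = 0.92), which encodes a chain of the peptide transporter for MHC class I. Socs1 was most like Peli1 (r = 0.79), which encodes a ubiquitin ligase, Trim21 (r = 0.77) and Plac8 (r = 0.76). For Socs3 they were Khdc4 (r = 0.83), Apba3 (r = 0.76) and Olfml2b (r = 0.76), and for Cish Frmd4b (r = 0.73), Tnfrsf4 (r = 0.72), which encodes the costimulatory receptor OX40, and Cbfa2t3 (r = 0.71). No gene appeared in more than 1 of these 4 lists, but at 3 of 11298 genes each they are too short to tell whether partners are shared. These values describe the closest of many genes and carry no test.

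The rest of the pathway was read from fixed lists. In the combination against anti-PD-1, 17.2% of all tested genes had an unadjusted p under 0.05. Of 14 signalling partners, among them Ifng, all 14 had a positive difference between the combination and anti-PD-1 (median 0.27, against -0.002 over all genes), 4 at an unadjusted p under 0.05 and none past the adjusted limit. The partners with the smallest p were Irf2 (0.54 ± 0.15, edgeR adjusted p = 0.0741) and Irf8 (0.78 ± 0.28, adjusted p = 0.146), both transcription factors of the IRF family, and Ifng differed by 1.02 ± 0.55 (adjusted p = 0.334). All 26 tested interferon-gamma targets were positive (median 0.57), with 13 at an unadjusted p under 0.05 and none adjusted, led by Cd274, which encodes PD-L1 (1.27 ± 0.34, adjusted p = 0.0656), and Nos2, inducible nitric oxide synthase (1.84 ± 0.56, adjusted p = 0.0954). Of 15 other negative regulators, 9 were positive and 6 negative (median 0.06). An unadjusted p under 0.05 was found for 2 of the 15, a share below that of all genes. They were Ptpn6, the phosphatase SHP-1 (0.86 ± 0.25, edgeR adjusted p = 0.0794), and Socs6 (0.26 ± 0.12, adjusted p = 0.266). Among 25 other JAK-STAT cytokines and receptors 21 were positive (median 0.29), with Prlr, the prolactin receptor (-3.84 ± 1.13, adjusted p = 0.0816), and Il10 (1.21 ± 0.38, adjusted p = 0.101) having the smallest p. Prlr had counts in 34 of 49 tumours, with a mean of 5.53 CPM and a highest tumour of 161 CPM. Nos2 had counts in all 49, with a mean of 5.35 CPM and a highest tumour of 90.1 CPM. The weight of single tumours on the differences of these genes was not tested.

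For R against NR averaged over both treatments the interferon-gamma targets were again all positive, 26 of 26 (median 0.76, against 0.02 over all genes), with 12 at an unadjusted p under 0.05 (14% of all genes) and none adjusted. Nos2 (2.95 ± 0.64, edgeR adjusted p = 0.0549) and Irgm1, an interferon-induced GTPase (0.92 ± 0.30, adjusted p = 0.148), had the smallest p. In the same comparison T cell markers were positive in 14 of 14 (median 0.55) and cytotoxic lymphocyte markers in 9 of 9 (median 0.69). Skeletal muscle markers were positive in 23 of 23 (median 1.80). Macrophage markers were positive in 5 of 11 (median -0.04), endothelial markers in 3 of 8 (median -0.15) and fibroblast markers in 2 of 8 (median -0.19). Neutrophil markers were positive in 5 of 6, with 4 higher at an unadjusted p under 0.05 and 1 past the adjusted limit, lower. The lymphocyte lists differed by treatment. T cell markers were positive in 14 of 14 under the combination (median 1.24) and in 5 of 14 under anti-PD-1 (median -0.28). Cytotoxic lymphocyte markers were positive in 9 of 9 (median 1.29) and 5 of 9 (median 0.07). Macrophage markers were positive in 8 of 11 under the combination (median 0.38) and in 1 of 11 under anti-PD-1 (median -0.38). The targets were positive in 26 of 26 under each (medians 0.91 and 0.71). The part of these cell types in the target values was not tested. The lists below are again averaged over both treatments. Of the 14 partners 13 were positive (median 0.30), with Stat5b (0.24 ± 0.12, adjusted p = 0.341) and Ifng (1.32 ± 0.64, adjusted p = 0.345) first, and of the 15 other negative regulators 12 (median 0.11), with Ptpn2, a phosphatase of JAK and STAT proteins (0.29 ± 0.12, adjusted p = 0.246), and Pias3 (-0.23 ± 0.10, adjusted p = 0.281) first. Among 27 other JAK-STAT genes 23 were positive (median 0.33), with Lif (1.41 ± 0.53, adjusted p = 0.216) and Csf3r (1.10 ± 0.44, adjusted p = 0.244) first. Among NR tumours alone the combination differed from anti-PD-1 by a median of 0.08 over the targets, 16 of 26 positive, against -0.03 over all genes.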

How the data were processed

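RNA of 49 CT26 tumours was sequenced as Lexogen QuantSeq 3′ FWD libraries, as the labels' protocols state. One deposited table has unnormalized counts for each Ensembl gene, which the authors made with bcl2fastq, STAR and featureCounts (builds mm10 and GRCm38, per the submitters' processing notes). Their versions and strand setting are not stated there. The second deposited table holds log2 CPM values, which equal log2 of the count plus 0.5 up to 1 constant per library (largest spread 9.99e-09); the tests used the counts.

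Groups came from the labels, and replicate numbers only name tumours in label order. Genes were tested with edgeR 4.0.16 in R 4.3.3 (TMM, filterByExpr, robust quasi-likelihood fit, Benjamini-Hochberg adjustment over all genes tested, limit 0.05), with 13726 genes in the fit of 4 treatments and 14247 in that of 6 groups of treatment and label. Log2 CPM used a prior count of 2. Correlations used 100000 two-sided permutations (Python 3.11.15, numpy 2.4.6), with adjustment within families of 45 and 72 pairs. Alternatives were DESeq2 1.42.0, limma-voom (limma 3.58.1), RLE scaling, no count filter, fits of only the groups compared, muscle or T cell covariates, removal of 12 libraries with other tissue (muscle list mean over 3, or skin or fat list mean over 5, in log2 CPM), and leaving out each library. The fits were tested on simulated data. Coordinates come from the GENCODE annotation on GRCm38, and promoter windows from RefSeq on GRCm38.p6. The 9 members are all named; from each list the 2 genes with the smallest p are named in the combination against anti-PD-1 and in R against NR, and for Irf1, Socs1, Socs3 and Cish the 3 most alike genes, leaving out predicted genes. The members and lists were chosen with earlier results of these data known. Standard errors cover the spread between tumours. Gbp5, Gbp6 and Flg were not analysed here.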

Additional observations from a re-analysis of the deposited data

Results flagged for a closer look

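In each group of 4 to 10 tumours the highest and the lowest tumour was compared with the others for every member and score, and 4 of 40 groups and measures had a tumour that stood apart (gap over range beyond Dixon's limit); chance gives about 1 in 20. Among the 4 combination NR tumours, tumour 12 was the highest for Ifngr2 at 5.05 log2 CPM, with the next at 4.45. In the same 4 tumours, tumour 2 was the lowest for Jak2 at 5.37 log2 CPM, with the next at 5.47, a small gap in a narrow group. Among the 4 anti-PD-1 R tumours, tumour 14 was the lowest for Socs1 at 4.42 log2 CPM, with the next at 5.48; its T cell list mean was -0.44 log2 CPM and its muscle list mean 3.57. Among the 7 celecoxib tumours, tumour 1 was the lowest for Socs3 at 4.55 log2 CPM, with the next at 5.92; its muscle list mean was 7.27 log2 CPM. The part of other tissue in these values was not tested.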

How the results depend on the processing

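The 65 member differences given above were recomputed under 8 settings: of 520 values, 497 kept their direction and side of the limit, 8 passed the limit under the alternative alone and 15 changed sign. With 1 library left out, 1570 of 1608 kept both, 12 passed the limit and 26 changed sign. Over all 108 differences of members and comparisons, 51 of 864 values changed sign under the 8 settings (28 with the T cell covariate, 15 without tumours with other tissue) and 132 of 2736 with 1 library left out. With DESeq2, 1 member was called for the combination against vehicle, 2 against anti-PD-1 and 1 for R against NR averaged over both treatments. The muscle covariate gave 1 called member for the combination against vehicle and 1 against anti-PD-1, the removal of libraries with other tissue 1 against vehicle, and the T cell covariate 1 for R against NR averaged. With 1 library left out, the members called ranged from 0 to 1 for the combination against vehicle (1 without combination tumour 15) and from 0 to 2 against anti-PD-1 (above 0 without anti-PD-1 tumours 1, 2, 12 or 17 or combination tumours 3, 6, 10, 12 or 15).

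Of the 15 changes of sign, 11 came with the T cell covariate. Against anti-PD-1 the combination then gave -0.12 for Ifngr1, -0.16 for Ifngr2, -0.17 for Jak2, -0.054 for Wars and -0.025 for Cish, against vehicle -0.089 for Ifngr1, and against anti-PD-1 among R tumours -0.22 for Irf1. R minus NR under the combination was -0.11 for Ifngr1, -0.088 for Socs1 and -0.12 for Cish, and the interaction -0.024 for Socs1. Without tumours with other tissue the combination against anti-PD-1 was -0.055 for Ifngr2, and R minus NR averaged 0.080 for Cish. In limma-voom celecoxib against vehicle was -0.016 for Socs3, and anti-PD-1 against vehicle -0.038 for Irf1. With 1 library left out, 7 differences changed sign, with ranges of -0.109 to 0.067 for Cish in R minus NR averaged, -0.178 to 0.067 for Cish in the interaction, -0.024 to 0.092 for Ifngr2 in the combination against anti-PD-1, -0.33 to 0.14 for Wars in that comparison among R tumours, -0.021 to 0.25 for Irf1 in anti-PD-1 against vehicle, -0.042 to 0.12 for Jak1 in R minus NR under anti-PD-1, and -0.053 to 0.18 for Socs3 in celecoxib against vehicle. The inhibitor mean minus the mediator mean for combination R against combination NR was 0.03, and -0.39 with z-scored genes; the cause was not tested. Of 45 correlations, 27 passed the adjusted limit, 31 without removal of group means and 21 without tumours with other tissue. Without removal of group means the r of Socs3 turned to 0.014 with Ifngr1, 0.18 with Jak1, 0.20 with Irf1 and 0.057 with Cish, none past the limit.

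The number of all genes called varied more: 69 for the combination against anti-PD-1, with 297 in DESeq2, 145 with the muscle covariate, 35 in limma-voom, 34 with the T cell covariate, 22 with all genes kept, 19 with other groups left out of the fit and 11 without other tissue. Against vehicle it was 10, with 67 in DESeq2, 59 with the muscle covariate, 787 without other tissue, 3 in limma-voom and 2 with other groups left out. For R against NR averaged it was 7, with 167 in DESeq2, 39 with the T cell covariate and 0 with the muscle covariate, with other groups left out or without other tissue. For anti-PD-1 against vehicle it was 12, with 24 in DESeq2, with the T cell covariate and with all genes kept. For the combination against celecoxib it was 5, with 124 with all genes kept and 0 to 2 in 5 other settings. For celecoxib against vehicle it was 0, with 49 when all genes were kept and 7 in DESeq2; for R against NR under the combination 0, with 17 in DESeq2 and 1 with the T cell covariate; for the same labels within anti-PD-1 0, with 1 with the T cell covariate; for the difference between these contrasts 0, with 2 in DESeq2; for the combination against anti-PD-1 among NR 4, with 13 in DESeq2 and 7 with the T cell covariate; and for the interaction 0, with at most 4 in any setting. No paired analysis was possible because the replicate numbers only name tumours in label order. Groups of 4 R or NR tumours, and 14 to 145 counts per tumour for Cish, limit the precision.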
